A study of Mus musculus with 4 samples.

Results

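The cells described here were type 2-like alveolar cells (AT2-like cells) taken from lung organoids, split by which of the 2 fluorescent reporter transcripts, EGFP or tdTomato, they carried. In each organoid library a barcode was kept when it held at least 500 genes, at most 15% mitochondrial UMIs (unique molecular identifiers, 1 per captured transcript), at least 5% of its UMIs on Sftpc, less than 0.1% on the myeloid genes Tyrobp, Fcer1g and C1qb together, and at least 2 reporter UMIs. Cells with at least 80% of their reporter UMIs on EGFP formed the EGFP side and cells with at most 20% formed the tdTomato side. The rule found 593 cells, 201 on the EGFP side and 392 on the tdTomato side, of 33203 barcodes in the 3 organoid libraries and 42105 in the whole series. At days 8, 13 and 20 there were 48, 81 and 72 EGFP-side cells and 92, 155 and 145 tdTomato-side cells.

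All cells came from mouse lung of the genotype Gramd2creERT2;mTmG. Green cells were sorted (day 0) and grown in Matrigel on filter inserts together with fibroblasts of the MLg line, in medium with serum and SB 431542, an inhibitor of TGF-beta receptors. Both sides therefore share genotype, co-culture and inhibitor, and come from cultures begun with the same sort. Whether tdTomato-side cells descend from green cells was not tested. Before capture with the 10x 3' kit the colonies were dissociated and enriched for EpCAM, an epithelial surface protein, and 1 library was made for each day. The labels name the RNA as nuclear. Whether the 3 libraries came from separate mice or cultures, the age of the mice, and how Cre was induced were not given in the sources used here, so every p-value below measures only the spread between these 3 libraries.

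In mTmG mice every cell makes membrane tdTomato until Cre removes that cassette, after which the cell and its descendants make membrane EGFP instead. Here CreERT2, a Cre active only with tamoxifen or a similar ligand, is placed under Gramd2 (also named Gramd2a), a gene of type 1 (AT1) cells, the thin cells through which gas passes. AT2 cells make and secrete surfactant, of which Sftpc encodes one protein, and can give rise to AT1 cells.

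Cells were selected on EGFP, tdTomato, Sftpc, mitochondrial and myeloid UMIs and on genes detected, so the values of those genes are given as a description with no test. EGFP stood at 2070.3, 1953 and 1666 CPM (UMIs of a gene scaled to a common total of all UMIs in the sum) on the EGFP side at days 8, 13 and 20, and at 18.1, 21 and 11.1 CPM on the tdTomato side. For tdTomato the EGFP side held 2.92, 14.1 and 0.937 CPM and the tdTomato side 216, 281 and 211 CPM. The tdTomato signal was thus the weaker reporter, with a median of 4, 5 and 4 reporter UMIs per cell against 13, 28 and 16 on the EGFP side. Cells rich in myeloid genes from the same libraries, with at least 0.1% of UMIs on Tyrobp, Fcer1g and C1qb and under 1% on Sftpc, held 104, 61.5 and 46.6 CPM of tdTomato and 11.4, 61.7 and 6.32 CPM of EGFP. How far free RNA in the droplets set the side of a cell with few reporter UMIs was not tested. Without cells under 5 reporter UMIs 12 genes were higher on the EGFP side and 18 on the tdTomato side, against 31 and 37 with them.

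Many cells lay near the cut-offs. The minimum of 2 reporter UMIs was held by 20, 35 and 43 tdTomato-side cells and by 8, 8 and 5 EGFP-side cells at days 8, 13 and 20. An EGFP share above 10% and up to 20%, just inside the tdTomato side, was found in 27, 46 and 24 cells, and a share between 20% and 40%, just outside, in 35, 34 and 40. A share from 80% to 90% was found in 2, 4 and 0 cells and one from 60% to 80% in 11, 9 and 15. Between 5% and 6% Sftpc there were 11, 5 and 5 AT2-like cells, and between 4% and 5%, outside the rule, 8, 11 and 6 cells.

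Of the AT2-like cells with 2 or more reporter UMIs, 23.4% (95% Clopper-Pearson interval 17.8 to 29.8), 26.7% (21.8 to 32.1) and 23.4% (18.8 to 28.5) fell on the EGFP side at days 8, 13 and 20. The tdTomato side held 44.9% (37.9 to 52.0), 51.2% (45.4 to 56.9) and 47.1% (41.4 to 52.8). The remaining 31.7%, 22.1% and 29.5%, called mixed, lay between the cut-offs of 20% and 80%. Cells of the sides could carry both transcripts too. Only tdTomato was found in 64 of 92, 99 of 155 and 117 of 145 tdTomato-side cells. Only EGFP was found in 46 of 48, 68 of 81 and 71 of 72 EGFP-side cells. The intervals of each class overlap across all 3 days, and they cover counting error only.

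**Figure D1:**
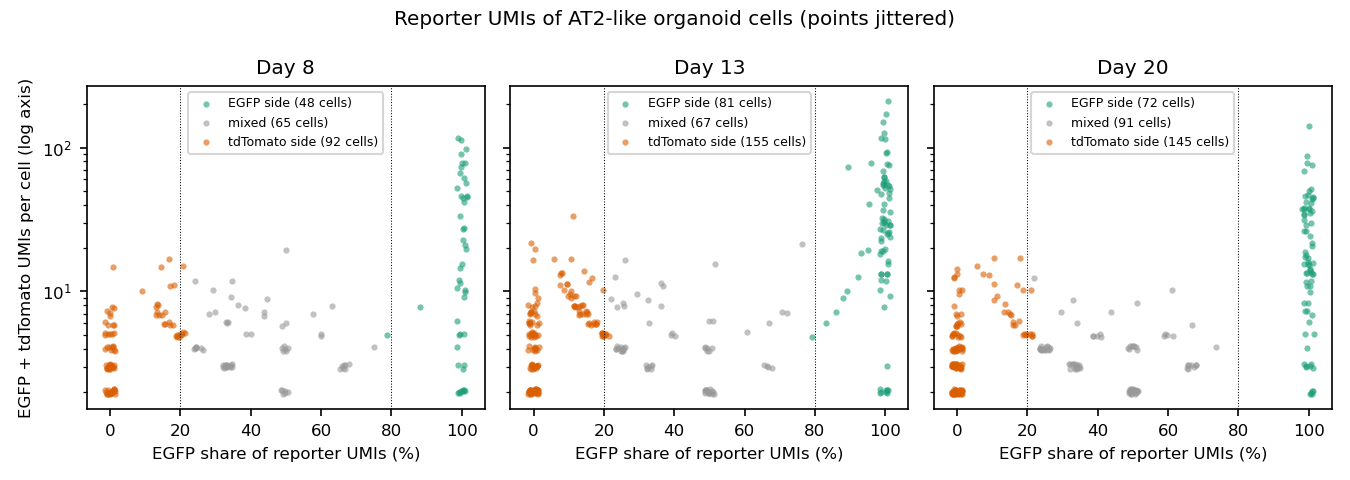
Each point is 1 AT2-like cell, placed by the EGFP share of its reporter UMIs in percent (x, jittered) and its EGFP plus tdTomato UMIs on a log axis (y), in 1 panel per day. Dotted lines mark 20% and 80%, and the EGFP side reaches over 100 reporter UMIs per cell while the tdTomato side stays at or below 32.

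The AT2 label was checked on genes the rule did not use. Sftpb, a surfactant protein gene, stood at 8131, 7091 and 8101 CPM on the EGFP side and 8254, 8407 and 6435 CPM on the tdTomato side, and Sftpa1, another, at 10224, 12032 and 5978 and 13975, 13452 and 6399.8 CPM. Neither differed beyond the spread between libraries (edgeR adjusted p = 0.724 and 0.172). Both sides also carried Ager, the defining AT1 gene, so the name AT2-like rests on the surfactant genes. Median UMIs per cell were 10612.5, 16396 and 14919.5 on the EGFP side and 20279.5, 17698 and 18896 on the tdTomato side, with the lower median on the EGFP side in each library. Of the wider myeloid list, 11 of 14 genes were tested, none passed in either direction, and the list summed to 235, 400.1 and 162 CPM on the EGFP side and 201, 367 and 208 CPM on the tdTomato side. The Y-linked genes Ddx3y, Eif2s3y, Kdm5d and Uty summed to 35.1, 36.8 and 33.7 CPM on the EGFP side and 32.1, 56.4 and 54.1 CPM on the tdTomato side, and X- and Y-linked genes were left out of all calls. Between 25 and 41 cell barcodes were shared by any pair of the 4 libraries.

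The comparison asked which other genes differed between EGFP-labelled and tdTomato-labelled AT2-like cells. Of the gene groups examined, 5 of 14 tested AT1 genes, 2 of 7 genes of antigen presentation by MHC class II and 3 of 15 transitional genes passed the test as higher on the EGFP side, with Cldn18 and Ager among them. In the other direction 2 of 10 airway secretory genes, 3 of 9 NF-kB and chemokine genes and the lysozyme gene Lyz2 passed as higher on the tdTomato side, with Bpifa1 among them. UMIs were summed per side and library and fitted with edgeR's quasi-likelihood test with the library as a block. Of 8537 genes tested, 31 (0.363%) were higher on the EGFP side and 37 (0.433%) on the tdTomato side at a Benjamini-Hochberg adjusted p below 0.05, together 0.797%. Of these 68 genes, 64 had the same sign in all 3 libraries, and for 53 the CPM of the sides did not overlap across libraries, where 14.2% of all tested genes lay wholly higher and 2.64% wholly lower on the EGFP side. In these sums a larger share of cells with a transcript and more of it per cell cannot be told apart. The counts depended on single libraries, since 253 and 267 genes passed without day 13, and 2 and 5 without day 8. With every cell thinned to 2000 UMIs, which removes the difference in depth between the sides, 34 and 26 passed. These were in part other genes, since 40 of the 68 called genes could be fitted after thinning and 30 still passed.

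A ratio of at least 1.5-fold in the same direction in all 3 libraries, the agreement asked of these ratios, was met by 100 of 4470 genes (2.24%) higher on the EGFP side and 36 (0.805%) higher on the tdTomato side, together 3.04%. This is a description with no test, since 3 pairs allow an exact paired permutation p no lower than 0.25. The split of 100 against 36 depended on the scaling. CPM set the median gene 0.13 higher on the log2 scale on the EGFP side, and on CPM rescaled by edgeR's TMM factors, under which the median fitted change was −0.00448, the counts were 60 and 57. Both conditions, the test and the agreement, were met by 23 genes on the EGFP side and 19 on the tdTomato side.

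**Figure D2:**
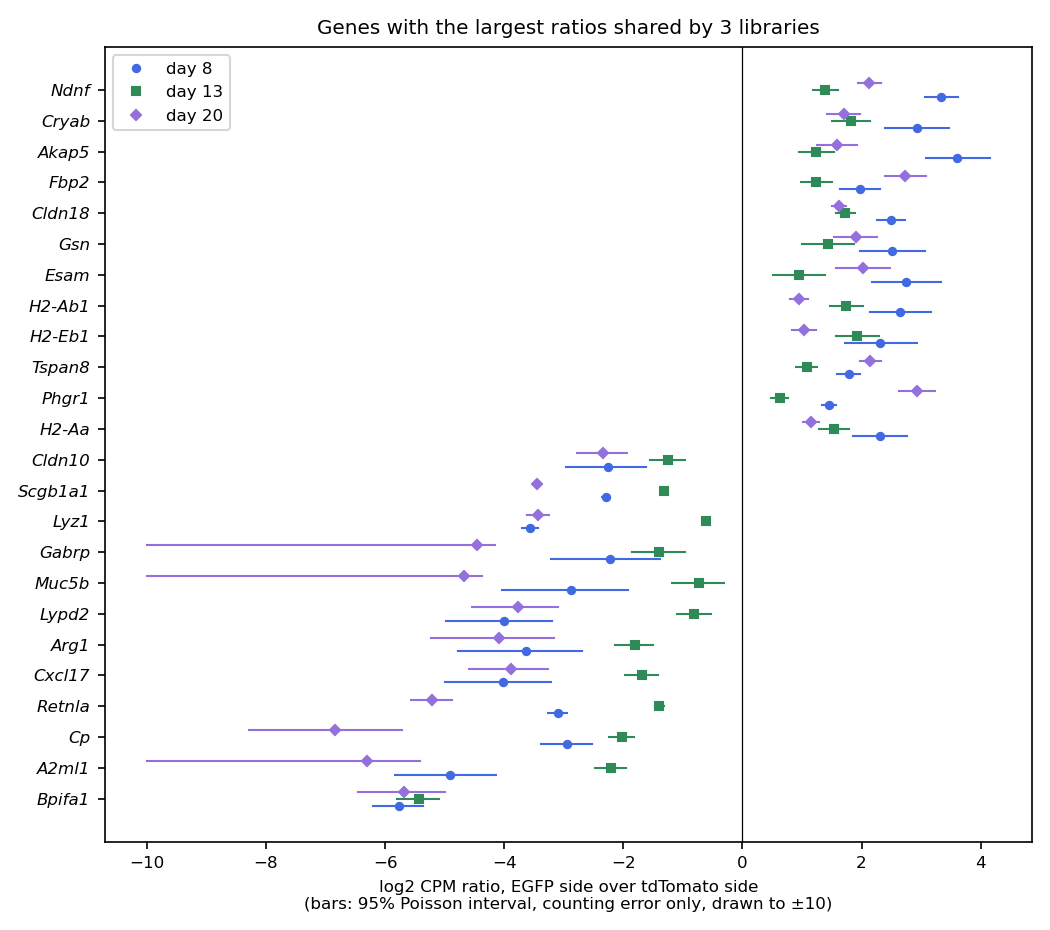
Log2 CPM ratio of the EGFP side over the tdTomato side (x) for the 12 genes in each direction with the largest mean ratio among those agreeing in all 3 libraries, with 1 symbol per day and 95% Poisson bars for counting error only. All points of a gene lie on the same side of 0, with day 13 (squares) nearest 0 for most genes higher on the tdTomato side, and a side with fewer than 3 UMIs (A2ml1, Muc5b and Gabrp at day 20) is drawn as if it held 3.

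All 14 tested genes of the AT1 list had a positive fitted change, 5 passed the test, none passed in the other direction, and the list's median log2 change was 0.99 beside −0.00448 over all tested genes. Ager, which encodes the receptor RAGE on AT1 cells, stood at 2133, 1929 and 2505 CPM on the EGFP side and 790.2, 1013 and 1169.8 CPM on the tdTomato side, so the sides did not overlap (log2 change 0.99 ± 0.12, SE, adjusted p = 0.027 by edgeR). Cldn18, a tight junction claudin of alveolar cells, stood at 689.6, 563 and 1105 against 122, 170.3 and 359 CPM (1.77 ± 0.18, adjusted p = 0.0163), again without overlap. The other 3 were Emp2, a tetraspan membrane protein (1.23, adjusted p = 0.0327), Clic5, a protein linking membrane and cytoskeleton (1.30, 0.0324), and Pdpn, podoplanin (2.94, 0.0215). Pdpn was sparse, at 19, 14.7 and 32.8 CPM against 2.59, 2.3 and 2.61.

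Akap5, a scaffold for protein kinase A, and Hopx, a homeodomain cofactor of AT1 cells, met the 1.5-fold agreement without passing the test. Akap5 stood at 239.6, 133 and 143 CPM on the EGFP side and 19.7, 56.1 and 47.9 CPM on the tdTomato side (adjusted p = 0.0904 by edgeR). For Hopx the values were 313, 379 and 465 and 120.2, 199 and 298 CPM (adjusted p = 0.0679). Both genes were higher on the EGFP side in each library. Gramd2, the gene that drives Cre, was sparse on both sides, at 35.1, 20.3 and 19.7 CPM against 18.7, 19.7 and 13.7 CPM, and did not pass (adjusted p = 0.698).

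The share of cells rich in Ager was higher on the EGFP side in each library, by little at day 13. Cells with at least 0.1% of their UMIs on Ager made up 81.3% (67.4 to 91.1), 50.6% (39.3 to 61.9) and 81.9% (71.1 to 90) of the EGFP side at days 8, 13 and 20. On the tdTomato side they made up 33.7% (24.2 to 44.3), 47.1% (39.0 to 55.3) and 46.2% (37.9 to 54.7). The intervals cover counting error within 1 library per day only, and the shares were not tested. After thinning each cell to 2000 UMIs, 87.5, 81.5 and 97.2% of EGFP-side cells and 74.7, 75.5 and 77.9% of tdTomato-side cells held an Ager UMI (unthinned 97.9, 98.8 and 100% and 100, 96.8 and 99.3%). In the cells rich in myeloid genes, which should lack Ager, 1.4, 1.6 and 0.8% held one, at median depths of 17177, 8107 and 10552.5 UMIs before thinning.

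Without the Ager-rich cells the AT1 list's median was 0.27, and of its 5 genes only Cldn18 still passed (1.56, adjusted p = 0.0313 by edgeR). Ager itself, by which these cells were removed, then differed by 0.14, and Emp2 by 0.98 (adjusted p = 0.318). In all, 7 genes were then higher on the EGFP side and 37 on the tdTomato side. These were largely other genes, since of the 68 called with all cells 59 could be fitted and 17 still passed. The cells rich in Ager were left out by a measured gene, so those remaining are not a sample of each side. They numbered 9, 40 and 13 on the EGFP side and 61, 82 and 78 on the tdTomato side.

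Of 7 tested MHC class II genes, 6 were at least 1.5-fold higher on the EGFP side in each library. Over all genes 100 of 4470 (2.24%) were, on the same CPM without TMM scaling. Class II molecules present peptides to helper T cells, AT2 cells are known to carry them, and their genes share a conserved promoter module that includes a Y-box, an inverted CCAAT element. All 7 tested genes of the list of 8 had a positive fitted change with a median of 1.35, and 2 passed the test. H2-Aa, an alpha chain, stood at 169, 206 and 753 CPM on the EGFP side and 34.2, 70.9 and 341 CPM on the tdTomato side (1.43 ± 0.20, adjusted p = 0.0316 by edgeR). H2-Eb1, a beta chain, stood at 97.9, 121 and 305 against 19.7, 31.8 and 149 CPM (1.49 ± 0.23, adjusted p = 0.0364). Both genes had higher levels in each later library on both sides, so that the EGFP side of day 8 lay below the tdTomato side of day 20 and the ranges overlapped, while the EGFP side was the higher within every library.

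H2-Ab1, the partner chain of H2-Aa, had 155, 180.4 and 529 CPM against 24.9, 53.8 and 274 (1.5, adjusted p = 0.0613 by edgeR), and Cd74, the invariant chain that guards class II molecules on their way to the surface, 1388, 1651 and 3267 against 265, 652 and 1813 CPM (1.35, 0.0697). H2-DMa and H2-DMb1, the chains of the peptide exchange factor, had changes of 0.93 and 1.19 (adjusted p = 0.161 and 0.0959). None of these 4 genes passed, though each was at least 1.5-fold higher on the EGFP side in all 3 libraries. Without Ager-rich cells the list's median was 1.12, and H2-Aa and H2-Eb1 had changes of 1.09 and 1.19 (adjusted p = 0.0744 and 0.0658). The 13 tested genes of MHC class I and interferon-gamma response had a median of −0.07 and no call. Cells rich in myeloid genes held 1.13, 132 and 868 CPM of H2-Aa. At day 8 the transcript was thus nearly absent from them, with a UMI in 0.874% of these cells before thinning. The genes Tyrobp, Fcer1g and C1qb stood at 99.3, 259.6 and 89 CPM on the EGFP side and 73.6, 246 and 96.5 CPM on the tdTomato side. Neither side was the higher in all libraries, but the cell rule keeps these 3 genes below 0.1% of UMIs and so in part sets their levels. How far myeloid RNA enters the class II values was not tested. In cells with less than 0.02% of UMIs on those 3 genes, H2-Aa and H2-Eb1 differed by 1.40 and 1.44 (adjusted p = 0.0201 and 0.0243).

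To show what these genes share upstream, the RefSeq windows of 250 bases before their starts (GRCm38.p6) are shown for the 3 that hold the letters TGATTGG, the Y-box core, in capitals. The windows are written 5′ to 3′ along the gene, H2-Aa at chr17:34287824-34288073 on the minus strand, H2-Eb1 at chr17:34305617-34305866 and H2-DMb1 at chr17:34152941-34153190, both on the plus strand.
H2-Aa: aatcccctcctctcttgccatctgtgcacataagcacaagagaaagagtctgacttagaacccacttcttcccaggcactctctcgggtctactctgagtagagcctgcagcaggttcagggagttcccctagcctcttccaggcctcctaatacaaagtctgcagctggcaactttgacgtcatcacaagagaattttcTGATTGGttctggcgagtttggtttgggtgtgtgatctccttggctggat
H2-Eb1: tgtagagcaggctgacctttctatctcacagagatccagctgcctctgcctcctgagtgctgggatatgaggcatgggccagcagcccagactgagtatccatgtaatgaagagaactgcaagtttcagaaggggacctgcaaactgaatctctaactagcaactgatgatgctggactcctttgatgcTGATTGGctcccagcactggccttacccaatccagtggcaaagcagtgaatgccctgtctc
H2-DMb1: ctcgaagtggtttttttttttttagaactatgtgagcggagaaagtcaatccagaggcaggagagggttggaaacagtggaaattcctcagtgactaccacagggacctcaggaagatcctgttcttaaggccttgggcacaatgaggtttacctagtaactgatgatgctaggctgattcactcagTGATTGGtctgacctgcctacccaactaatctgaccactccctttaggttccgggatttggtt
The first base of the motif lay 50, 61 and 63 bases before the start. Windows were at hand for 4 of the 7 tested genes, and H2-Ab1, Cd74 and Ciita had none to search. Neither window of H2-DMa held these letters. The letters, searched on both strands (reverse CCAATCA), were in 2375 of 32851 windows of this length, or 7.23%. A match describes the letters only.

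Genes of the basement membrane, the sheet under the epithelium, all had a positive fitted change (10 tested, median 1.07), but only Lama3, a laminin chain, passed, at 11.7, 7.36 and 12.2 CPM against 0.518, 1.31 and 1.3 (2.95, adjusted p = 0.0388 by edgeR). Col4a3 and Col4a4, collagen IV chains, and Agrn, agrin, met the agreement without passing. Npnt, nephronectin, an integrin ligand outside the list, passed with 155, 107 and 130.2 against 51.8, 55.5 and 49.2 CPM (1.13, adjusted p = 0.0316), and the sides of both Lama3 and Npnt did not overlap.

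Of 15 genes of the transitional state between AT2 and AT1 cells, 11 had a positive and 4 a negative fitted change (median 0.59), and 3 passed, all higher on the EGFP side. Krt8, a keratin that marks this state, stood at 805, 639 and 637 CPM against 380.3, 346 and 341 CPM, without overlap (0.80 ± 0.11, adjusted p = 0.0304 by edgeR). Krt19, another keratin, had 1131, 574 and 479 against 528, 305 and 304 CPM (0.73, 0.0452) and Lgals3, galectin-3, 657, 573 and 483 against 283, 337 and 260.2 CPM (0.79, 0.0364). Lgals3 did not overlap between the sides, and Krt19 did. Without Ager-rich cells none of the 3 passed, and the list's median was 0.29. Among 10 tested junction genes only Cldn18 passed, and all 10 fitted changes were positive with a median of 0.27.

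The largest ratios shared by all 3 libraries on the EGFP side also included genes of no fixed list. Ndnf, a secreted neurotrophic factor, stood at 749.5, 270.0 and 539.7 CPM on the EGFP side and 74.1, 103 and 123 CPM on the tdTomato side, a ratio of 10.1 (8.39 to 12.3), 2.63 (2.27 to 3.05) and 4.38 (3.84 to 5) with 95% Poisson intervals (adjusted p = 0.0344 by edgeR). Cryab, the small heat shock protein alpha-B crystallin, had 165, 149.7 and 220.2 against 21.8, 42.3 and 67.8 CPM (adjusted p = 0.0216). Fbp2, the muscle form of fructose bisphosphatase, had 256, 164 and 226 against 65.3, 69.2 and 33.9 CPM (adjusted p = 0.0316). None of these 3 overlapped between the sides, which their choice by CPM ratio favours, and 14.2% of all tested genes lay wholly higher on the EGFP side. Gsn, the actin-severing protein gelsolin (1.75, adjusted p = 0.0215), and Tspan8, a tetraspanin (1.51, 0.0277), passed without overlap as well. Esam, an adhesion molecule best known from endothelium (1.68, adjusted p = 0.057), and Phgr1 (1.44, 0.152) did not pass. Lpl, lipoprotein lipase, which passed outside the agreement, stood at 20.5, 11 and 58.1 CPM against 4.15, 1.97 and 8.8 (adjusted p = 0.0214).

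All 10 tested genes of the airway secretory list had a negative fitted change (median −1.52), 2 passed, and 3 met the agreement. Bpifa1, a secreted antimicrobial protein of airway epithelium, stood at 71.6, 43.6 and 15.9 CPM on the EGFP side and 3911, 1889 and 817 CPM on the tdTomato side at days 8, 13 and 20. The ratio, 54.6 (41.3 to 73.9), 43.3 (34.3 to 55.6) and 51.3 (32 to 88.2) times higher on the tdTomato side with 95% Poisson intervals, was the largest mean ratio among the named genes (−5.77 ± 0.14, adjusted p = 1.66e-06 by edgeR). The sides did not overlap. It passed with every library left out in turn, with log2 changes from −5.90 to −5.70, and at 5 or more reporter UMIs (−6.70, adjusted p = 0.0359). After thinning to 2000 UMIs, 2.08, 4.94 and 2.78% of EGFP-side cells and 27.5, 15.5 and 11% of tdTomato-side cells held a Bpifa1 UMI (unthinned 6.25, 25.9 and 5.56% and 38, 42.6 and 18.6%). The share in cells rich in myeloid genes was 2, 6 and 1.4%, so the EGFP-side shares lay at this background. On the EGFP side few cells held the transcript after thinning. The cell with the most Bpifa1 held 93.9, 52.1 and 82.4% of the transcript's UMIs on the EGFP side and 33.5, 43.1 and 17.8% on the tdTomato side, so the EGFP-side level rested largely on 1 cell in each library. The Poisson intervals of the ratio cover counting error only and take no account of this.

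Scgb1a1, the club cell secretoglobin, stood at 3610.2, 8439 and 3046 CPM on the EGFP side and 17741, 21128 and 33271 CPM on the tdTomato side, without overlap (−2.51 ± 0.35, adjusted p = 0.0316 by edgeR). The difference was spread over cells, with a median of 263, 2105 and 135 CPM per EGFP-side cell and 8575, 10133 and 14253 CPM per tdTomato-side cell, against 68.2, 147 and 96.3 CPM in cells rich in myeloid genes. Cells with doublet scores among the highest of their library numbered 0, 3 and 1 on the EGFP side and 2, 3 and 10 on the tdTomato side, and without them Scgb1a1 differed by −2.51 and Bpifa1 by −5.71 (adjusted p = 0.0149 and 2.35e-07). Muc5b, an airway mucin, had 13.1, 37.4 and 0 against 96.9, 62.3 and 72.1 CPM and did not pass (adjusted p = 0.17), and Scgb3a2, a second secretoglobin, had 7.31, 314 and 75 against 158, 263 and 297 CPM (adjusted p = 0.346). Muc5b did not overlap between the sides and Scgb3a2 did. Scgb3a2 rested on few cells, since the cell with the most held 20, 51.4 and 58.8% of the transcript's UMIs on the EGFP side and 89.2, 23.1 and 68.8% on the tdTomato side at days 8, 13 and 20.

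Other genes with the largest shared ratios on the tdTomato side were A2ml1, a protease inhibitor, Cp, the copper carrier ceruloplasmin, Retnla, a resistin-like protein of inflamed airway, Cxcl17, a mucosal chemokine, and Arg1, arginase. A2ml1 stood at 19, 84.7 and 0.937 CPM on the EGFP side and 573, 390.5 and 222 CPM on the tdTomato side (adjusted p = 0.0364 by edgeR). Cxcl17 had 17.5, 78.5 and 19.7 against 286, 253 and 292 CPM (0.0316), and Arg1 13.1, 57.1 and 8.43 against 164, 200.2 and 144 CPM (0.0277). These 3 passed, and none overlapped between the sides, which their choice by CPM ratio favours. Of all tested genes 2.64% lay wholly higher on the tdTomato side. Cp, at 71.6, 123 and 5.62 against 549.8, 501 and 643 CPM, and Retnla, at 495, 1157 and 67.5 against 4256, 3040.3 and 2511 CPM, did not overlap either but did not pass (adjusted p = 0.0613 and 0.0679). For A2ml1, Cp, Retnla, Cxcl17 and Arg1 the ratio was smallest at day 13.

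Lysozyme transcripts were lower on the EGFP side in each library. Lyz2, the lysozyme gene shared by AT2 and myeloid cells, stood at 6323, 21879 and 13541 CPM on the EGFP side and 18586, 39332 and 37175 CPM on the tdTomato side (−1.45 ± 0.15, adjusted p = 0.0163 by edgeR). Lyz1 stood at 679, 3783 and 226 against 8088, 5812 and 2426 CPM and did not pass (adjusted p = 0.0892). The sides of both genes overlapped across days, since the EGFP side of day 13 exceeded the tdTomato side of another day. The 2 genes are close copies, and how reads shared between them were counted was not given in the sources used here. After thinning, a Lyz1 UMI was held by 22.9, 22.2 and 2.78% of EGFP-side and 48.4, 39.4 and 20% of tdTomato-side cells, against 3.4, 4.8 and 1.4% of cells rich in myeloid genes (unthinned 37.5, 35.8 and 9.72%, 70.7, 63.9 and 32.4% and 26.1, 16.9 and 5.05%). One cell held 97.1% of the EGFP side's Lyz1 UMIs at day 20. Without the library of day 8 the Lyz2 change was −1.32 and did not pass (adjusted p = 0.103).

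**Figure D3:**
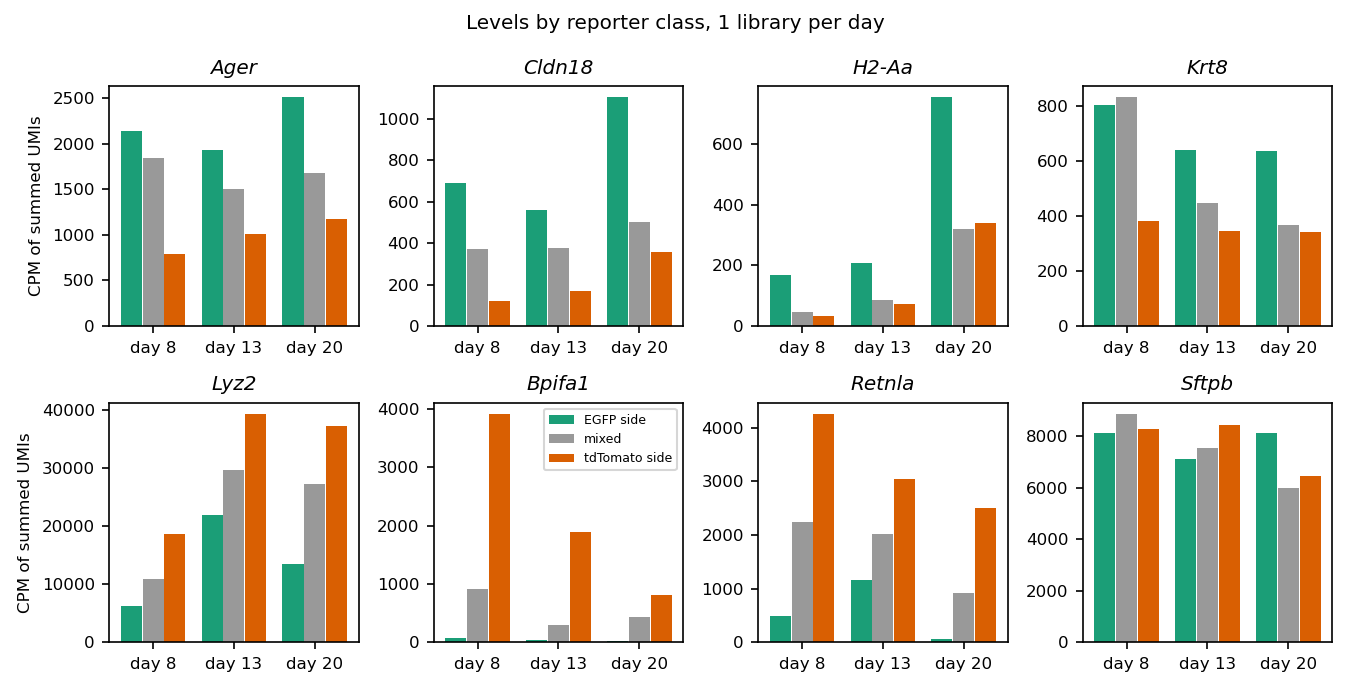
CPM of the summed UMIs (y, linear from 0, a scale for each gene) on the EGFP side, in mixed cells and on the tdTomato side. Days 8, 13 and 20 are on x, with 1 library per bar group and so no error bars. Ager, Cldn18, H2-Aa and Krt8 are higher and Lyz2, Bpifa1 and Retnla lower on the EGFP side in every library, while Sftpb has no fixed order.

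Of a list of genes reported for cultured AT2 cells, drawn up with earlier results of these data in view, 4 had positive and 8 negative fitted changes (12 tested, median −1.18), and 4 passed, Klk10, Klk13, Arg1 and Retnlg, all higher on the tdTomato side. That list is no independent evidence of its direction, and the other lists were also chosen with earlier results of these data known. NF-kB and chemokine genes had 1 positive and 8 negative changes (9 tested, median −1.14), and 3 passed in the same direction. These were Cxcl17, given above, Nfkbia and Ccl20. Ccl20, a chemokine that draws CCR6-bearing lymphocytes, stood at 1.46, 2.45 and 0 CPM on the EGFP side and 58.6, 32.2 and 13 CPM on the tdTomato side (−4.54, adjusted p = 0.0134 by edgeR), the EGFP side resting on 1, 4 and 0 UMIs. Nfkbia, the NF-kB inhibitor that NF-kB itself induces, had 78.9, 55.8 and 44 against 114, 94.8 and 81.2 CPM (−0.89, 0.0364). Outside that list Hp, the acute-phase protein haptoglobin, had 1723, 1916 and 533 against 5070.1, 4115 and 3845 CPM (−1.98, 0.0344), and Trf, transferrin, 1546, 2932 and 466 against 4820.4, 5380.0 and 3371 CPM (−1.93, 0.0484). These 4 genes did not overlap between the sides.

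Dcn, Col1a2 and Col3a1, products of mesenchymal cells, passed as higher on the tdTomato side (−4.18, −2.88 and −3.07, adjusted p = 8.27e-04, 0.0163 and 0.0304 by edgeR), 3 of 6 tested genes of the mesenchymal list. Dcn, decorin, stood at 0, 3.68 and 7.5 CPM on the EGFP side and 3.63, 65.3 and 113 CPM on the tdTomato side, and the ranges overlapped. Cells with at least 0.1% of UMIs on Col1a1, Col1a2 and Col3a1 numbered 0 of 92, 2 of 155 and 6 of 145 on the tdTomato side and 0 of 48, 81 and 72 on the EGFP side. Without those 8 cells the changes were −1.92, −1.11 and −0.75, still lower on the EGFP side, and none passed (adjusted p = 0.121, 0.287 and 0.489). The cells were chosen by Col1a2 and Col3a1 among others, so a smaller difference in those genes without them was set by the choice. The whole mesenchymal list, 11 genes with Vim among them, summed to 853, 597 and 725 CPM on the EGFP side and 352, 712 and 807 CPM on the tdTomato side.

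Lists of AT2 function and metabolism held few calls. Of 13 tested genes of surfactant lipid and the lamellar body none passed (median 0.11), nor did any of 12 genes of cholesterol synthesis (−0.16). Of 17 tested AT2 genes Lyz2 alone passed (median 0.16), and of 12 tested fatty acid genes Lpl alone (0.23). Cycling genes had 2 positive and 10 negative fitted changes (12 tested, median −1.13) and no call. Without Ager-rich cells the cycling list's median was −3.34, and 7 of its genes passed as higher on the tdTomato side. That fit held only 9, 40 and 13 EGFP-side cells, so these values rest on few cells. All genes called in it are counted above. Cells with at least 0.1% of UMIs on cycling genes made up 10.4% (3.47 to 22.7), 3.70% (0.770 to 10.4) and 5.56% (1.53 to 13.6) of the EGFP side and 17.4% (10.3 to 26.7), 7.10% (3.60 to 12.3) and 2.76% (0.757 to 6.91) of the tdTomato side, with intervals for counting error only. No basal or lymphoid gene reached the level to be tested. A gene that did not pass is not shown to be equal on both sides.

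**Figure D4:**
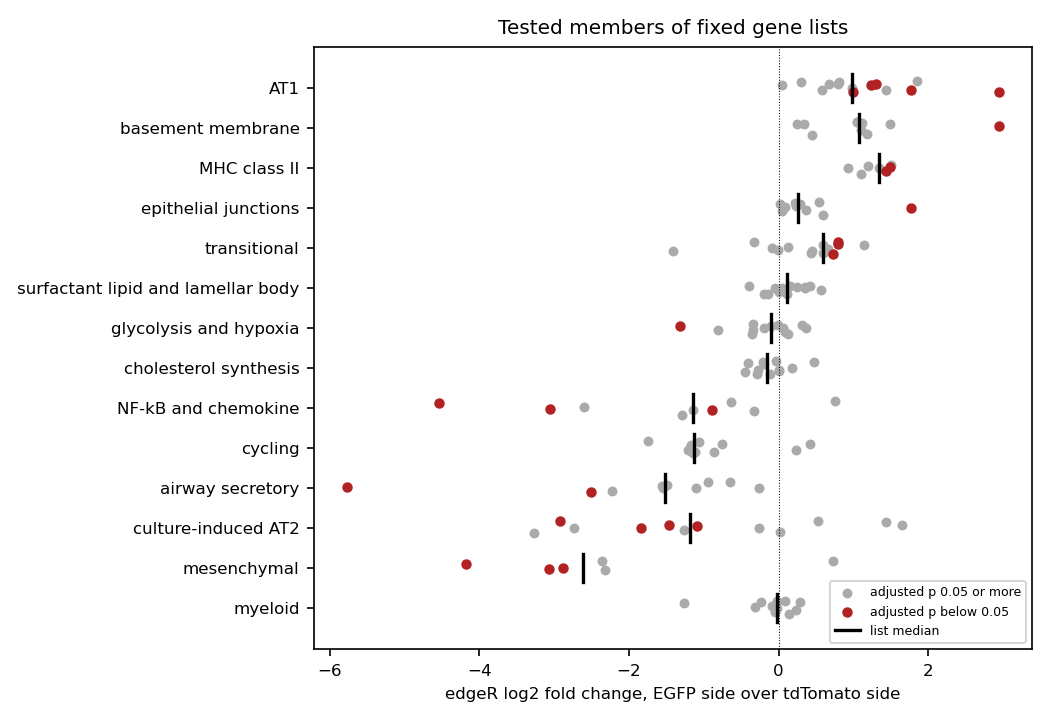
Fitted log2 change of the EGFP side over the tdTomato side (x) for each tested gene of 14 lists (y), with genes at an adjusted p below 0.05 in red and list medians as black bars. AT1, basement membrane and MHC class II medians lie near or above 1 and the airway secretory median at −1.52, while surfactant and myeloid medians lie near 0.

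Mixed cells, with an EGFP share between the cut-offs, were set beside the sides for the genes with the largest shared ratios. These genes were chosen for a wide gap between the sides, which favours a value in between. No share over all genes is given, so the counts are a description only. For the 12 genes with the largest shared ratio on the EGFP side, the mixed cells' CPM lay between the sides for 11, 6 and 11 genes at days 8, 13 and 20, and for the 12 on the tdTomato side for 12, 9 and 12. Cldn18 in mixed cells stood at 372, 379 and 500.2 CPM and Bpifa1 at 915, 305 and 432 CPM. Cells labelled by both transcripts and mixtures of cells or RNA from each side cannot be told apart from the UMIs.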

How the data were processed

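The deposited files hold UMI counts per gene and barcode, made by the authors with Cell Ranger 7.0.1 on the mm10 build, per the submitters' processing notes. Whether free RNA or doublets were removed before deposit was not given in the sources used here. The 3 organoid libraries held 33203 barcodes, and day 0 took no part in the tests. Counts were summed per side and library (6 sums) and fitted with edgeR 4.0.16 (TMM scaling, filterByExpr, quasi-likelihood test, library as a block, Benjamini-Hochberg over 8537 genes, calls below 0.05). X- and Y-linked genes and those used to choose cells entered totals only. Doublets were scored with Scrublet in scanpy 1.11.5, and scored cells were left out only as an alternative. Named genes were the 12 per direction with the largest mean log2 CPM ratio among those agreeing at 1.5-fold with at least 50 CPM on the higher side in every library, up to 4 agreeing genes per list, and preset key genes. Ratios used 3 UMIs as the least value of either side. Other genes that passed, such as Lama3, Npnt and Lpl, were named after their values were seen. Members and lists were chosen with earlier results of these data known. On simulated counts for 8287 genes the test recovered 13.4%, 55.2% and 97.0% of 1.5-, 2- and 4-fold changes, with 5 false calls. These counts had 1 common dispersion and the same fold in every library. The rates therefore do not give the power for real differences, which varied by day.
The sides share libraries by construction, which is the pairing that the block uses. Alternatives covered the cell filters, reporter thresholds, scaling, DESeq2 1.42.0, low-count filtering, thinning and each library left out.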

Additional observations from a re-analysis of the deposited data

Results flagged for a closer look

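In the sorted sample of day 0, which entered no test, AT2-like cells with tdTomato as their main reporter were present although the sort was for green cells. By the same rule 7 of 71 cells with 2 or more reporter UMIs, 9.859% (95% Clopper-Pearson interval 4.06 to 19.3), fell on the tdTomato side. How far free tdTomato RNA set the side of these cells was not tested. A further 59 cells fell on the EGFP side and 5 lay between the cut-offs. The tdTomato-side cells held a median of 3 reporter UMIs and the EGFP-side cells 10. Cells rich in myeloid genes in that library held 242 CPM of tdTomato, against 708 CPM in the 7 cells.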

How the results depend on the processing

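No gene that passed changed sign under any alternative that gave it a value. The counts of genes higher on the EGFP and on the tdTomato side, 31 and 37, moved to 12 and 18 at 5 or more reporter UMIs, 69 and 64 with sides at 90% and 10%, 81 and 73 at 2% Sftpc, 57 on the EGFP side at 10% Sftpc, 59 and 58 at 0.02% myeloid UMIs, and 67 and 63 without the highest doublet scores. They moved to 7 on the EGFP side without Ager-rich cells, 57 without cycling cells, 48 with DESeq2, and 94 and 103 with no filter on low counts. In the fit with no replicate block, where libraries are not paired, edgeR called 0 and 0 genes (635 at an unadjusted p below 0.05) and DESeq2 was run only with the block. With 1 library left out the counts ranged from 2 to 253 and from 5 to 267. Without day 8, 5 of the 68 called genes still passed, without day 13 all 67 that could be fitted, and without day 20 32 of 64. Of the called genes that could be fitted, 17 of 59 still passed without Ager-rich cells and 30 of 40 with cells thinned to 2000 UMIs. The agreeing genes, 100 and 36, moved to 25 and 14 at 2-fold, 49 and 20 at 50 CPM, and 60 and 57 on TMM-scaled CPM, an alternative chosen after seeing the data. With 1 library left out they ranged from 149 to 378 and from 63 to 109. The EGFP side's percent of cells on either side, 34.3, 34.3 and 33.2 at days 8, 13 and 20, moved to 45.0, 43.4 and 51.7 at 5 or more reporter UMIs, to 41.4 at day 13 with sides at 90% and 10%, and to 12.9 and 14.3 at days 8 and 20 without Ager-rich cells, alternatives also chosen after seeing the data. The causes of these moves were not tested. Of the tdTomato-side cells 98 of 392, and of the EGFP-side cells 21 of 201, held the minimum of 2 reporter UMIs.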
